A study of Mus musculus with 4 samples.

Results

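NF-κB subunits and their inhibitors were described in the mRNA of Il10-EGFP+ and Il10-EGFP- T cells through 10 genes chosen by name: the subunit genes Nfkb1, Nfkb2, Rel, Rela and Relb, the IκB genes Nfkbia, Nfkbib, Nfkbid and Nfkbie, and Tnfaip3, which encodes A20. All 10 were found among the 47643 Ensembl genes of the count table, and all 10 had at least 10 counts over the libraries and entered the test of 9608 genes. CD4+ T cells were sorted from the spleens of mice that carried the Tg4 T cell receptor transgene, which recognizes a myelin basic protein (MBP) peptide, together with the Nr4a3-Tocky Timer reporter of T cell receptor signalling and an EGFP reporter of Il10. All mice had received [4Y]-MBP peptide subcutaneously at 4 mg/kg and were analysed 24 h later, and all sorted cells were positive for the Nr4a3-Timer, so that the populations compared were set apart by Il10-EGFP within stimulated cells. They are called the positive and the negative population here. The series held 2 libraries of each population, described as biological replicates from mice. Whether a mouse gave both a positive and a negative library was not given in the sources used here. The age and sex of the mice behind each library were not given in the sources used here, and a further replicate pair that the study removed was not analysed here.

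NF-κB dimers are held in the cytoplasm by IκB proteins, and a T cell receptor signal passed through PKCθ, BCL10 and MALT1 activates the IκB kinase, after which IκB is degraded and the dimers enter the nucleus. The genes of several inhibitors, with Nfkbia as the best known, are themselves switched on by NF-κB, which closes a negative feedback loop. In T cells the pathway drives survival, proliferation and cytokine genes, and c-Rel, encoded by Rel, is the subunit most closely tied to Il2. NF-κB activity is set largely by protein degradation and nuclear entry, which counts of mRNA do not measure.

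The promoters of 4 members, chosen after their values were seen, are shown. Each is given as the 250 bases before the gene start in RefSeq (GRCm38.p6), read 5′ to 3′ on the strand of the gene. Capitals mark matches to the 10-base κB consensus on either strand. Nfkb2 is on the plus strand (window at chr19:46304487-46304736, the most upstream of 3 starts), Rela on the plus strand (chr19:5637291-5637540), Nfkbia on the minus strand (chr12:55492648-55492897) and Nfkbib on the minus strand (chr7:28766645-28766894). The windows of Nfkb2 and Nfkbib lie inside the longer gene models of GENCODE given with the results.
Nfkb2: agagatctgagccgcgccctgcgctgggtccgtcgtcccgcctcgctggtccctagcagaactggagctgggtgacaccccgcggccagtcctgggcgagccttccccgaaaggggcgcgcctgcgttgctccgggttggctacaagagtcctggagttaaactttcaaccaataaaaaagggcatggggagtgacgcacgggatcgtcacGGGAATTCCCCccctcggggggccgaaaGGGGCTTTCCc
Nfkbia: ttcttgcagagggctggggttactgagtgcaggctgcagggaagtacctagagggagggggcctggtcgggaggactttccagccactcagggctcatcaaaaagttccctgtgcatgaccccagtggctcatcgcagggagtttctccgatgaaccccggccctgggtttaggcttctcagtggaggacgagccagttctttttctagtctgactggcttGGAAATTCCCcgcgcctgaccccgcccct
Nfkbib: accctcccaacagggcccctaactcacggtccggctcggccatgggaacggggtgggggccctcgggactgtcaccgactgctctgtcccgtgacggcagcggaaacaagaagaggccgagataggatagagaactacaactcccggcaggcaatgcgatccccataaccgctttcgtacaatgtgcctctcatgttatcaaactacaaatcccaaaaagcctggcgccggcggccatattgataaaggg
Rela: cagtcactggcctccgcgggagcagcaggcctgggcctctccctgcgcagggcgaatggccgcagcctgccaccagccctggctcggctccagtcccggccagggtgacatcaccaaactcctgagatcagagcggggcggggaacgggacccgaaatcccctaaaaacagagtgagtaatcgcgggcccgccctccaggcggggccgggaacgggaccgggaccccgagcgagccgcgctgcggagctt
The Nfkb2 window held 3 consensus matches, 2 of them overlapping, which began 39, 38 and 11 bases before the start. The Nfkbia window held 1 match, 29 bases before the start. The windows of Nfkbib and Rela held none. Of the 8 members with a window, 6 had a match in at least 1 of their windows (Nfkb2, Rel, Nfkbia, Nfkbid, Nfkbie and Tnfaip3), where 4.46% of all 27025 genes with a window and 5.40% of the 7373 tested genes with a window had one. Nfkb1 and Relb had no entry. A match is a stretch of letters and does not show binding. Members with a match had fold changes of either sign, and whether matches relate to the differences given below was not tested.

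The libraries held 644679 to 730330 counts, and 10.4 to 14.0% of the counts of each library came from the 3 genes with the most counts. Il10, the gene behind the sort, had 29 and 41 counts in the positive population and 0 in the negative one. Nr4a3, the gene of the Timer reporter, had 16 and 11 counts in the negative and 3 and 2 in the positive population (adjusted p = 0.0569, edgeR). All 10 T cell markers listed were detected. Their summed level was 2400 and 2380 CPM (counts scaled by library size after TMM normalization) in the negative against 3096 and 2965 CPM in the positive population. Among them Cd4 stood at 208 and 217 CPM in the negative and 257 and 302 CPM in the positive population. Of these markers only Trac, encoding the T cell receptor alpha constant region, passed the test (log2 fold change 0.59, adjusted p = 0.00449, edgeR). The summed level of 14 B cell markers was 156 and 238 CPM in the negative against 624 and 665 CPM in the positive population, and 6 of the 12 that were tested were called higher (Igkc, Ighm, Iglc2, Jchain, Cd22 and H2-Aa). The defining B cell gene Cd79a had 2 counts in all, both in Il10-EGFP- replicate 1. The summed level of 15 myeloid and dendritic cell markers was 125 and 163 against 426 and 234 CPM, with 2 of 10 tested genes called higher (Lyz2 and S100a8) and with Adgre1 and Flt3 at 0 in every library. Of 10 CD8 and NK cell markers, summed at 50.2 and 90.5 against 95.1 and 114 CPM, 5 were tested and Gzma was called higher, with Ncr1 and Klra8 at 0. B cells and myeloid cells also express NF-κB genes, and the part of these markers' cells in the values given here was not tested. In such bulk libraries, fewer cells that express a gene and less of its RNA per cell cannot be told apart.

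The fitted log2 fold change was negative for 7 of the 10 members, and 1 of the 10 passed the test. Nfkbib, which encodes IκBβ, fell by 0.83 on the log2 scale with a standard error of 0.21, and its p-value from the quasi-likelihood F-test of edgeR was 0.00979 after Benjamini-Hochberg adjustment over all genes tested. Over all genes tested, 4.09% were called in either direction, with 1.74% called lower and 2.35% called higher. For 6 members (Nfkb1, Nfkb2, Rel, Relb, Nfkbia and Nfkbib) both Il10-EGFP+ libraries lay below both Il10-EGFP- libraries, which held for 22.3% of the genes tested. For Rela and Nfkbie both Il10-EGFP+ libraries lay above, which held for another 22.3% of the genes, and Nfkbid and Tnfaip3 overlapped. At an unadjusted p under 0.05, 4 members were lower (Nfkb1, Nfkb2, Nfkbia and Nfkbib) and 0 were higher, where 7.49% of the genes tested were lower. The median log2 fold change was -0.40 over the 10 members and 2.5e-05 over all genes tested. The number called depended on the test, with 0 of 10 in DESeq2's Wald test, which called 1.17% of the genes, and 2 of 10 (Nfkbia and Nfkbib) in limma voom, which called 4.25%. Limma on the authors' rlog values called 1 of 10 (Nfkbib), and 2.06% of the genes it tested.

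**Figure D1:**
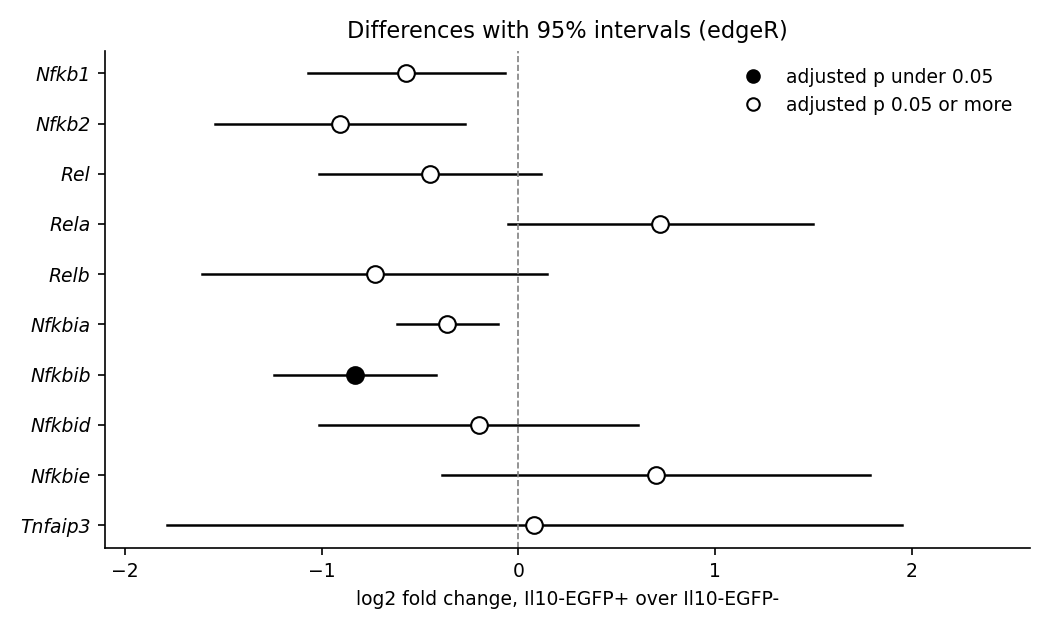
The log2 fold change of each member between Il10-EGFP+ and Il10-EGFP- T cells is drawn with its 95% interval from edgeR, with a filled point where the adjusted p was under 0.05. Nfkbib at -0.83 is the 1 filled point, and 3 of the 10 points, those of Rela, Nfkbie and Tnfaip3, lie above 0.

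In the order of their mean levels over the 4 libraries, Nfkbia stood first at 933 CPM, followed by Nfkbib at 132 CPM, Nfkb1 at 79.0, Rel at 61.0, Nfkb2 at 47.8, Rela at 33.0, Nfkbid at 27.5, Relb at 24.2, Nfkbie at 15.7 and Tnfaip3 at 5.82 CPM. These levels were not divided by gene length, because the reads come from the 3′ end of a transcript. Only the steps from Nfkbia to Nfkbib and from Nfkbie to Tnfaip3 separated neighbours whose libraries did not overlap. Every other pair of neighbours overlapped in their range over the 4 libraries. The place of Rela differed between the populations. Its mean of 41.0 CPM lay above the 33.3 CPM of Nfkb2 in the positive population, and its mean of 24.9 CPM lay below those of Nfkb2, Relb and Nfkbid in the negative one.

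**Figure D2:**
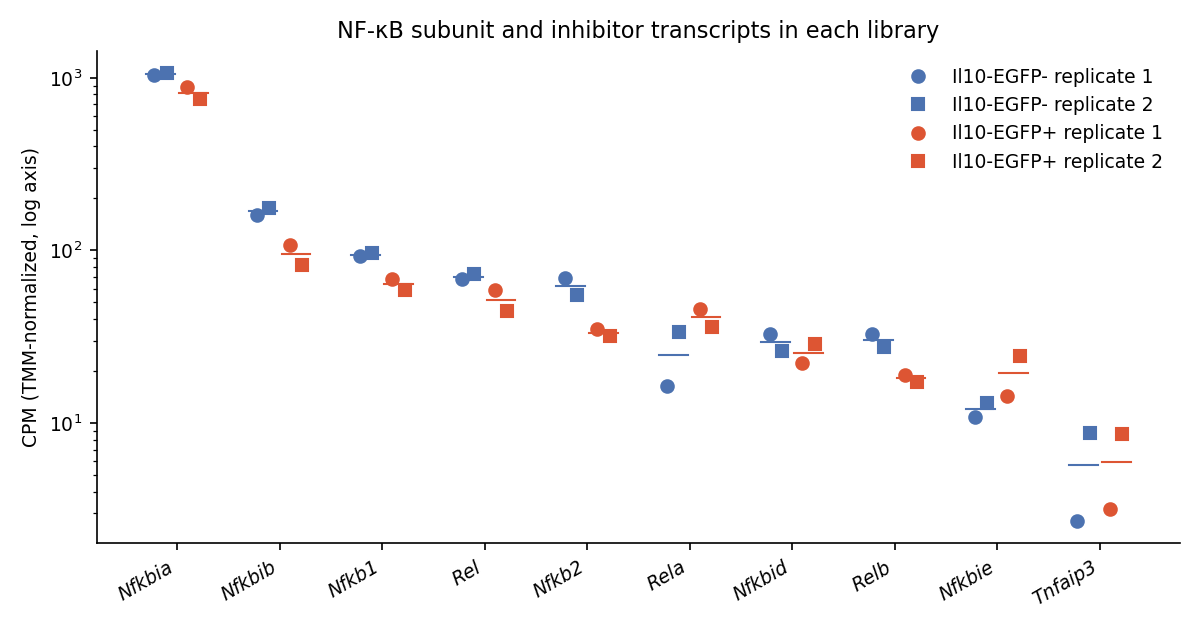
The level of each member is drawn for every library in CPM on a log axis, with a line at the mean of the 2 libraries of a population. Nfkbia lies between 753 and 1064 CPM, above all other members in every library, and Tnfaip3 lies between 2.71 and 8.75 CPM.

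Among the subunits, Nfkb1 (ENSMUSG00000028163, chromosome 3 of GRCm38, 135584655 to 135691547) encodes p105, the precursor of p50. It was counted 68 and 66 times in the negative and 43 and 41 times in the positive population, or 94.3 ± 2.83 against 63.6 ± 6.35 CPM (SD, n = 2 libraries each). Both Il10-EGFP+ libraries were the lower ones, and the log2 fold change was -0.57 with a 95% interval from -1.07 to -0.069 (adjusted p = 0.235, edgeR). Nfkb2 (ENSMUSG00000025225, chromosome 19, 46304320 to 46312385) encodes p100, the precursor of p52 and the substrate of the non-canonical arm. Its counts were 51 and 38 against 22 and 22, or 62.3 ± 9.74 against 33.3 ± 2.21 CPM (SD, n = 2 each). This was the most negative log2 fold change of the 10 members, -0.91 (standard error 0.32), with an adjusted p of 0.0979 in edgeR and a 95% interval from -1.54 to -0.27. The last exon of Nfkb2 overlaps exons of Psd on the other strand over 299 bases that include its 3′ end, and Psd had 0 counts in each library. Whether the authors' counting used the strand was not given in the sources used here.

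Rel (ENSMUSG00000020275, chromosome 11, 23736847 to 23770970), which encodes c-Rel, was counted 50 times in each negative library and 37 and 31 times in the positive libraries, or 70.4 ± 3.60 against 51.7 ± 9.83 CPM (SD, n = 2 each). The libraries did not overlap, but the interval of the log2 fold change ran from -1.01 to 0.11 around -0.45 (adjusted p = 0.481, edgeR), and without Il10-EGFP+ replicate 2 the value was -0.26. Relb (ENSMUSG00000002983, chromosome 7, 19606217 to 19629438), whose protein pairs with p52 in the non-canonical arm, had 24 and 19 against 12 and 12 counts. The positive libraries were again the lower ones, with a log2 fold change of -0.73 and an interval from -1.61 to 0.15 (adjusted p = 0.452, edgeR). The last of the subunits had the opposite sign. Rela (ENSMUSG00000024927, chromosome 19, 5637483 to 5648130), which encodes p65, the main activating partner of p50, was counted 12 and 23 times in the negative and 29 and 25 times in the positive population, or 24.9 ± 12.2 against 41.0 ± 6.99 CPM (SD, n = 2 each). Both positive libraries were the higher ones, but the negative libraries differed from each other by more CPM than the means of the populations did. The interval of the log2 fold change ran from -0.054 to 1.498 around 0.72 (adjusted p = 0.379, edgeR). Leaving out Il10-EGFP- replicate 1 gave 0.28, and leaving out Il10-EGFP- replicate 2 gave 1.32.

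Shares within a library do not depend on how libraries are scaled to each other. Of the counts of the 5 subunits, which numbered 205 and 196 in the negative and 143 and 131 in the positive population, Rela took 5.85% (95% Wilson interval 3.38 to 9.95%) and 11.7% (7.95 to 16.99%) in Il10-EGFP- against 20.3% (14.5 to 27.6%) and 19.1% (13.3 to 26.7%) in Il10-EGFP+ T cells. The mean share of Rela was thus 10.9 percentage points higher in Il10-EGFP+ T cells, and each Il10-EGFP+ library lay above both Il10-EGFP- libraries. Nfkb2 took 24.9 and 19.4% against 15.4 and 16.8%, also without overlap. Nfkb1 remained the most abundant subunit transcript in every library, at 33.2 and 33.7% against 30.1 and 31.3%. Rel took 24.4 and 25.5% against 25.9 and 23.7%, which overlapped. Relb took 11.7 and 9.69% against 8.39 and 9.16%. The number of Nfkb1 counts per Rela count was 5.67 and 2.87 in the negative against 1.48 and 1.64 in the positive population. A two-sided exact permutation test over 2 libraries against 2 gave p = 0.333 for Rela, the smallest that this design allows, so the shares are a description. Their intervals cover counting error only.

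**Figure D3:**
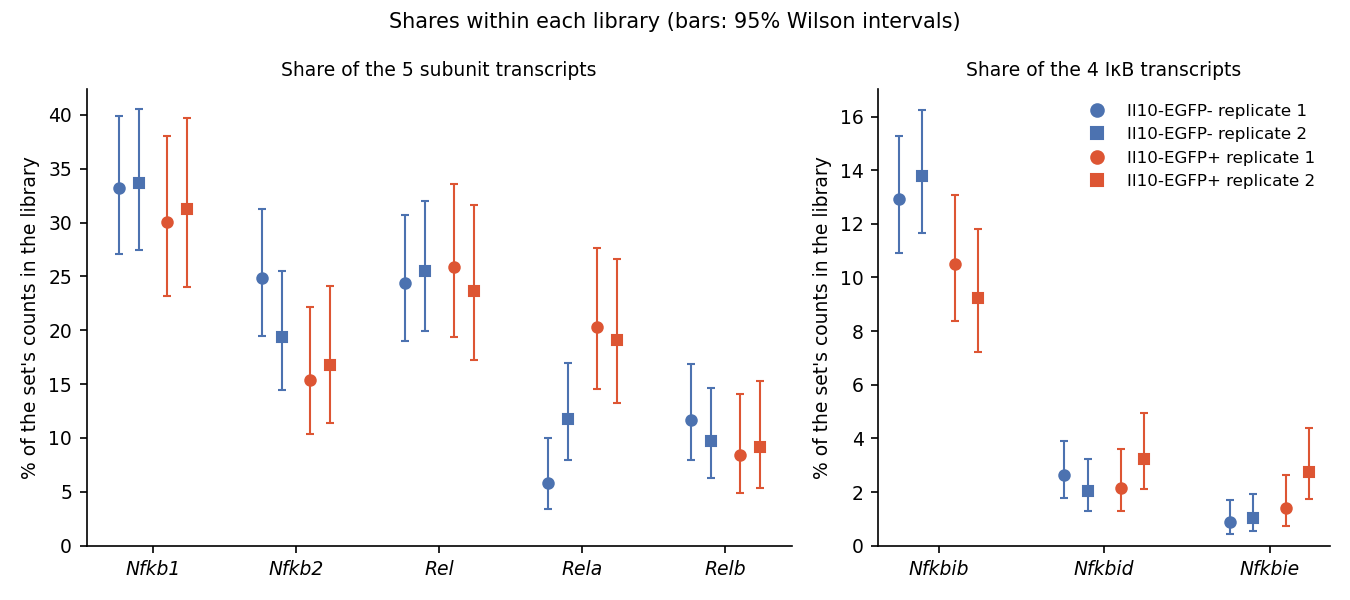
The share of each transcript in the counts of its set is drawn for every library in percent with 95% Wilson intervals, for the 5 subunits on the left and for the IκB transcripts other than Nfkbia on the right. The Rela share lies between 5.85 and 11.7% in Il10-EGFP- and between 19.1 and 20.3% in Il10-EGFP+ T cells, and the Nfkbib share is lower in both Il10-EGFP+ libraries.

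Among the inhibitors, Nfkbib (ENSMUSG00000030595, chromosome 7 of GRCm38, 28758251 to 28767512) was counted 118 and 121 times in the negative and 68 and 57 times in the positive population. This was 160 and 177 CPM against 108 and 82.2 CPM, with means of 168 ± 11.6 and 94.99 ± 18.0 CPM (SD, n = 2 each). The authors' rlog values showed the same order of libraries, at 6.60 and 6.67 against 6.33 and 6.17. Nfkbib was thus 1.78-fold lower in the positive population, and the 95% interval of the log2 fold change ran from -1.24 to -0.42. The gap between the populations was larger than the spread within either of them. IκBβ is known to be degraded more slowly than IκBα after a signal, and the window of its gene printed above held no κB consensus. The call was lost in DESeq2's Wald test (adjusted p = 0.193), when Il10-EGFP+ replicate 2 was left out (log2 fold change -0.64, adjusted p = 0.187, edgeR) and when Il10-EGFP- replicate 2 was (-0.76, adjusted p = 0.0848, edgeR). Over all alternatives the adjusted p ran from 0.00156 to 0.193. Exons of Nfkbib overlap those of Ccer2 on the other strand over 314 bases that begin 404 bases from its 3′ end, and Ccer2 had 0 counts in each library.

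Nfkbia (ENSMUSG00000021025, chromosome 12, 55489410 to 55492647) encodes IκBα, the inhibitor that NF-κB induces most directly, and was the member measured with the greatest depth, with counts of 762 and 729 in the negative against 557 and 522 in the positive population. Its levels were 1034 and 1064 CPM against 883 and 753 CPM, without overlap. The log2 fold change was -0.36 with a standard error of 0.13 and a 95% interval from -0.62 to -0.10 (adjusted p = 0.102, edgeR). In limma voom its adjusted p was 0.0410. Of the 4 IκB transcripts, Nfkbia took 83.6 and 83.1% of the counts in the negative and 86.0 and 84.7% in the positive population, and Nfkbib took 12.9 and 13.8% against 10.5 and 9.25%. There were 6.46 and 6.02 Nfkbia counts per Nfkbib count in the negative population against 8.19 and 9.16 in the positive one, so that the ratio of these inhibitors was higher in both Il10-EGFP+ libraries. These shares and the ratio were chosen after the data were seen, and the ratio has the called gene Nfkbib as its denominator. The exact permutation test gave p = 0.333 for the Nfkbia share and for the Nfkbib share, so they are a description.

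Nfkbie (ENSMUSG00000023947, chromosome 17, 45555703 to 45563169), which encodes IκBε, was counted 8 and 9 times in the negative and 9 and 17 times in the positive population. The log2 fold change of 0.70, with an interval from -0.39 to 1.79 (adjusted p = 0.603, edgeR), rested on Il10-EGFP+ replicate 2, without which it was 0.25. Nfkbid (ENSMUSG00000036931, chromosome 7, 30421732 to 30428746), which encodes the nuclear IκBNS, had 24 and 18 counts against 14 and 20. The populations overlapped, and the interval of the log2 fold change ran from -1.01 to 0.61 around -0.20 (adjusted p = 0.894, edgeR). With 1 library left out it lay between -0.41, when Il10-EGFP+ replicate 2 was missing, and -0.029, when Il10-EGFP+ replicate 1 was. Tnfaip3 (ENSMUSG00000019850, chromosome 10, 19000910 to 19015657), whose product A20 edits ubiquitin chains and ends signalling, had 2 and 6 counts in each of the populations. With 16 counts in all, the interval of its log2 fold change ran from -1.79 to 1.95 (adjusted p = 0.983, edgeR), and a difference inside it was not detectable at this depth.

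**Figure D4:**
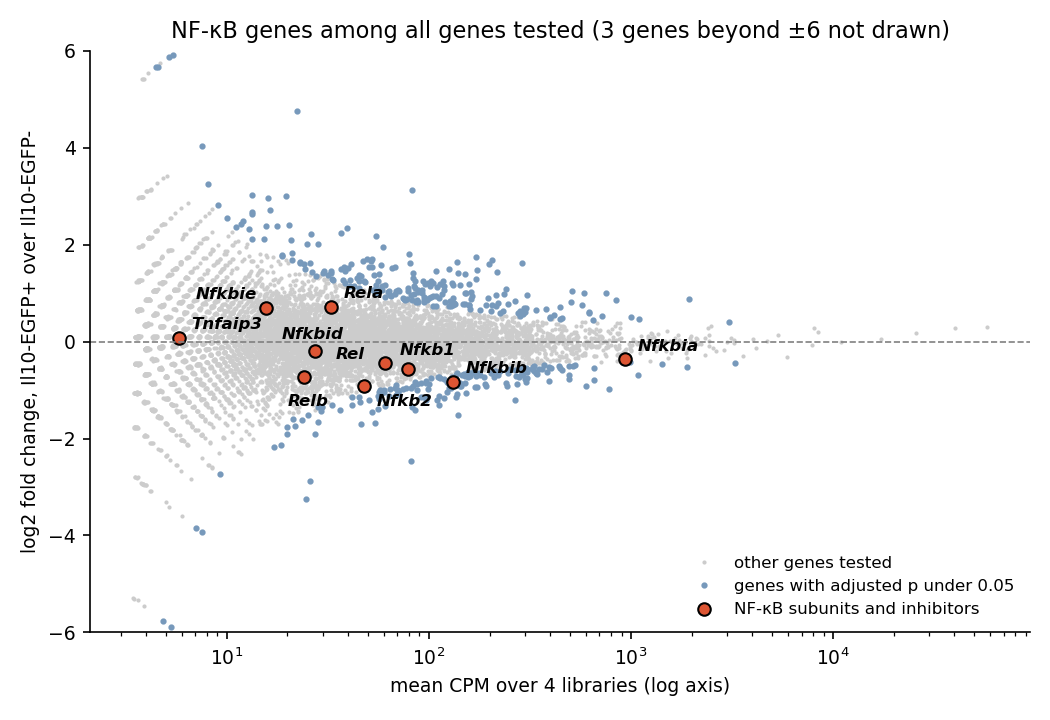
Each gene tested is drawn by its mean CPM over the 4 libraries on a log axis and its log2 fold change, with the members in red and with genes at an adjusted p under 0.05 in blue. Nfkbib lies among the blue points below 0, and Nfkbia, with the same sign at a smaller change, lies farthest to the right of the members at 933 CPM.

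The rest of the pathway was read from 4 further lists. Of 17 other inhibitors and atypical IκB genes, 0 passed the test in edgeR, DESeq2, limma voom or limma on the rlog values. These tests called 1.17 to 4.25% of all genes they tested. The median log2 fold change of the 17 genes was 0.091. At an unadjusted p under 0.05 in edgeR, 3 were higher and 0 were lower, against 7.96 and 7.49% of all genes tested. These 3 were Cyld, Tax1bp1 and Tnip3, and Tnip3 was named after its values were seen. Cyld, a deubiquitinase that restrains the pathway, stood at 163 and 147 CPM in the negative and 222 and 218 CPM in the positive population (log2 fold change 0.50, adjusted p = 0.102). Tax1bp1, an adaptor of A20, stood at 102 and 117 against 143 and 163 CPM (log2 fold change 0.49, adjusted p = 0.196), and Tnip3, an A20-binding protein, had 6 and 4 counts against 10 and 15 (log2 fold change 1.40, adjusted p = 0.244). Bcl3, an atypical IκB that binds p50 and p52, had a log2 fold change of 0.024 with an interval from -0.35 to 0.39. None of these adjusted p-values from edgeR passed the threshold.

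Of 21 genes of canonical signalling, 20 had enough counts for the test. Of these, 0 were called in edgeR, in DESeq2 or in either limma test, which called 1.17 to 4.25% of all genes they tested. The median log2 fold change of the 20 genes was 0.16. Ube2v1 had 6 counts in 1 library and was not tested. Prkcq, which encodes PKCθ, stood at 167 and 162 against 162 and 164 CPM (log2 fold change -0.013, interval from -0.38 to 0.36). Bcl10 had a log2 fold change of 0.074 and an interval from -0.37 to 0.52. At an unadjusted p under 0.05, 1 gene was higher and 1 was lower, shares that were below the 7.96 and 7.49% of all genes tested. Malt1, a paracaspase, stood at 86.9 and 75.9 against 144 and 110 CPM (log2 fold change 0.63, adjusted p = 0.102, edgeR). Rbck1, a subunit of the linear ubiquitin ligase that was named after its values were seen, stood at 114 and 84.6 against 72.9 and 53.4 CPM (log2 fold change -0.66, adjusted p = 0.139, edgeR).

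All 15 genes of receptors, ligands and non-canonical signalling were tested. Of these, 0 were called in edgeR, in DESeq2 or in either limma test, which called 1.17 to 4.25% of all genes they tested. The median log2 fold change of the 15 genes was 0.026. The TNF receptor family members Tnfrsf4 (OX40) and Tnfrsf18 (GITR) had log2 fold changes of -0.15 and 0.026. Cd28, the main costimulatory receptor, stood at 396 and 363 against 524 and 454 CPM (log2 fold change 0.36, adjusted p = 0.162, edgeR). It was the 1 gene that was higher at an unadjusted p under 0.05, where 7.96% of all genes tested were higher and 7.49% lower. Lta, the gene of lymphotoxin alpha, was the 1 gene that was lower at that level and was named after its values were seen. It had 12 and 26 counts in the negative and 6 in each positive library (log2 fold change -1.55, adjusted p = 0.0988, edgeR).

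Of 28 known NF-κB targets in T cells, 21 were tested, 1 was called, against 4.09% of all genes tested, and the median log2 fold change was -0.12. The genes not tested were Bcl2a1a, Bcl2a1b and Bcl2a1d, which are near-identical copies, and Csf2, Tnfsf11, Vcam1 and Il4i1, each with under 10 counts. The called gene was Myc, a driver of growth, which had 27 and 19 counts in the negative and 7 in each positive library (log2 fold change -1.59, standard error 0.49, adjusted p = 0.0465, edgeR). Limma voom did not call Myc (adjusted p = 0.0673), DESeq2 gave it no adjusted p, and limma voom called Ccnd2 and Irf4 instead. Ccnd2, the gene of cyclin D2, stood at 2035 and 2193 against 1627 and 1702 CPM (log2 fold change -0.34, adjusted p = 0.0861, edgeR), and Ccnd3, the gene of cyclin D3, at 322 and 244 against 380 and 368 CPM (log2 fold change 0.40, adjusted p = 0.149, edgeR). Il2ra, the gene of CD25, stood at 262 and 254 against 273 and 287 CPM (log2 fold change 0.12, adjusted p = 0.815, edgeR). At an unadjusted p under 0.05, 5 targets were lower (Il2, Irf4, Myc, Ccnd2 and Junb) and 2 were higher (Ccnd3 and Ier3), against 7.49% lower and 7.96% higher over all genes tested. Of these, Il2, Irf4, Junb and Ier3 were named after their values were seen. Il2, the cytokine gene tied to c-Rel, had 8 counts in each negative library and 1 and 0 in the positive libraries, a ratio of 0.067 with an exact 95% counting interval from 0.0016 to 0.43 (adjusted p = 0.0724, edgeR). Irf4, a factor induced by T cell receptor signals, stood at 189 and 150 against 135 and 83.7 CPM (adjusted p = 0.0666, edgeR). Junb, a subunit gene of AP-1, stood at 292 and 312 against 263 and 179 CPM (adjusted p = 0.121, edgeR). Ier3, an early response gene, had 0 and 1 counts in the negative against 4 and 5 in the positive population (adjusted p = 0.264, edgeR).

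**Figure D5:**
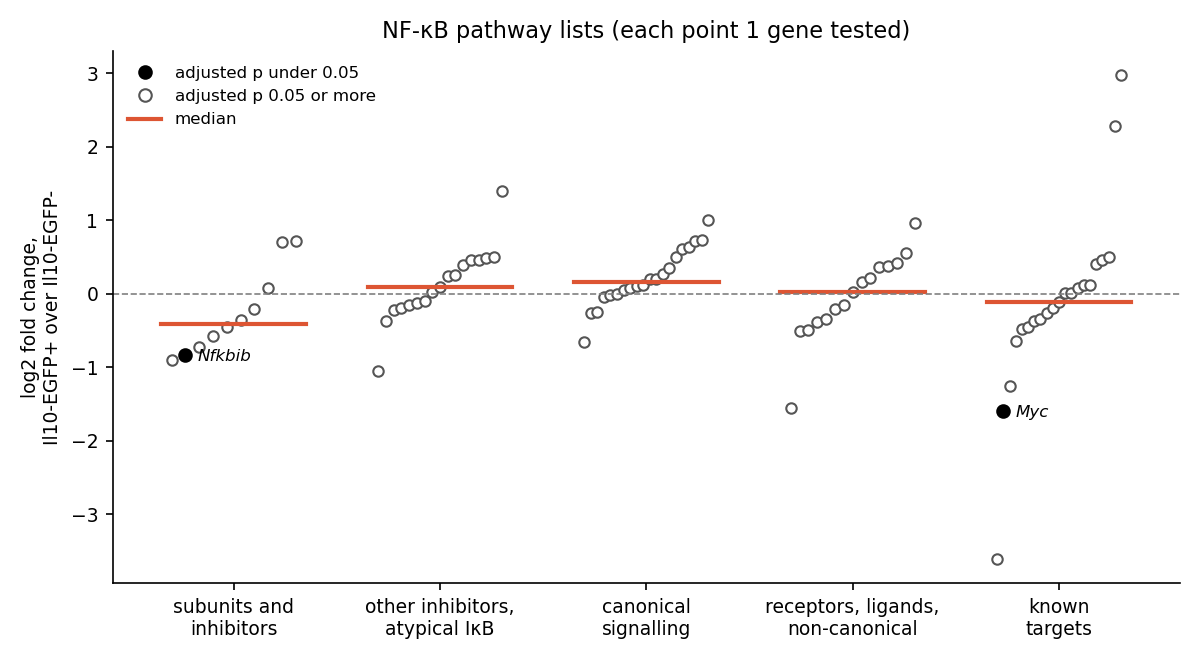
The log2 fold change of each tested gene is drawn for the 10 members and the 4 other lists, with filled points where the adjusted p was under 0.05 and a red line at the median of the list. The medians are -0.40 for the members, 0.091, 0.16 and 0.026 for the next lists and -0.12 for the known targets, and the filled points are Nfkbib and Myc.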

How the data were processed

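The authors made 3′ end libraries (QuantSeq FWD) from 5 ng of RNA with 22 cycles of PCR and deposited counts of reads per Ensembl gene, without normalization. Per the paper's methods, reads passed the BlueBee QuantSeq FWD pipeline on GRCm38 and HTSeq-count 0.6.0, and the submitters' processing notes also name STAR 2.5.2a. The labels and the paper's methods name molecular identifiers as a means to assess PCR duplicates and remove amplification bias. At which step they entered the deposited counts, the annotation release and the strand option were not given in the sources used here. The authors also deposited rlog values on a log2 scale from DESeq2, and recomputing them from the counts gave the deposited values within 0.01 for 100% of 9321 matched genes. No sample column was left unused.

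The test was edgeR 4.0.16 under R 4.3.3 (TMM factors, glmQLFit in its legacy form, glmQLFTest) on genes whose counts summed to 10 or more, and p-values were adjusted over all 9608 genes by the Benjamini-Hochberg method at a threshold of 0.05. Intervals of log2 fold changes are the fold change and its standard error with 54.2 degrees of freedom. The standard error was the size of the fold change over the square root of F. Alternatives used DESeq2 1.42.0 and limma 3.58.1, beside other filters and scalings, a replicate block, a threshold of 0.01 and leaving out each library. P-values from edgeR rest on the spread between 2 libraries per population, drawn toward a trend shared over all genes tested. Most of the 54.2 degrees of freedom come from that sharing and not from the libraries of the gene itself. Symbols matched all but 419 of 47643 identifiers, and gene positions came from GENCODE M21 on GRCm38.

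Members and lists were chosen with earlier results of these data known. The genes named are all members, and of each other list those called and the 3 with the highest mean CPM, together with Il10 and Nr4a3, and others are marked in the text. Of the marker lists, the genes called are named, with values for Trac only. Some genes that define a cell type or were not detected are also named, with values for Cd4 and Cd79a.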

Additional observations from a re-analysis of the deposited data

How the results depend on the processing

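Of the 10 members, 1 was called, and this became 0 in DESeq2's Wald test and 2 in limma voom, with Nfkbia as the second. With each library left out in turn, between 0 and 1 were called, and Nfkbib was lost when replicate 2 of either population was missing. Over all genes, 393 were called, against 112 in DESeq2 (71 higher, 41 lower), 197 in limma on the rlog values (104 higher, 93 lower), 177 at a threshold of 0.01, by construction, and between 201 and 264 with 3 libraries. The causes of the other changes were not tested. In DESeq2, 4284 genes, Relb, Nfkbie and Tnfaip3 among them, had no adjusted p. Bias-adjusted deviances, the other filters and scalings, and leaving out the 3 genes with the most counts kept Nfkbib as the called member.

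Both populations carry replicate numbers 1 and 2, but the labels do not say that a number marks 1 mouse, and same-numbered libraries deviated from their population means with a correlation of 0.0145 across 6781 genes. With the replicate block 560 genes were called, holding all 393, and 2 members, Nfkbib and Nfkbia (adjusted p = 0.0158, edgeR).

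Where a library was left out, the log2 fold change of Tnfaip3 ran from -0.80 to 1.10, the difference in the Rel share from -1.29 to 0.92 percentage points and that in the Nfkbid share of the IκB counts, chosen after the data were seen, from -0.18 to 0.90 points. The other 9 members kept the sign of their log2 fold change under every alternative that tested them. A minimum of 10 counts per library removed Nfkbie and Tnfaip3 from the test. Libraries of 644679 to 730330 counts limit what Tnfaip3, Nfkbie, Nfkbid and Relb can show.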
